A study of Mus musculus with 20 samples.

Results

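The BCL2 family decides whether the outer mitochondrial membrane stays intact. These results follow 10 of its genes (Bik, Bcl2, Bcl2l1, Bcl2l11, Mcl1, Bax, Bak1, Bbc3, Pmaip1 and Bid) of the 39179 counted genes in mouse kidney epithelial cells labelled by their Fh1 genotype. The genes were listed by symbol, and Bik was chosen by its measured levels, which were low in the clones, so Bik is described here without a test. The other 9 were listed as core members of the family with earlier results of these data known. All 10 passed the filter on low counts, Bik through Fh1_fl_fl, where it was high.

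The family holds 3 kinds of protein. Guardians (BCL2, BCL-XL from Bcl2l1, and MCL1) keep cells alive by holding the effectors BAX and BAK1, which otherwise form pores in the mitochondrial outer membrane and release cytochrome c. BH3-only proteins (BIK, BIM from Bcl2l11, PUMA from Bbc3, NOXA from Pmaip1, and BID) sense stress and either occupy the guardians or activate the effectors. Tubule cells of the kidney use the same proteins when oxygen or nutrients fail.

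All 20 RNA sequencing libraries came from immortalised epithelial cells labelled as kidney cells of strain C57BL/6J, in 4 groups of 5, grown in serum-supplemented DMEM with uridine. The product of Fh1 is fumarate hydratase, which turns fumarate into malate in the TCA cycle. Fh1_fl_fl cells carry the label Fh1 wt, clone1 and clone19 the label Fh1 deletion, and Rec cells the label Fh1 wt re-expressed. By their names clone1 and clone19 are 1 clone each, so a clone's own features and the Fh1 label cannot be told apart. The labels do not say which clone gave rise to the Rec cells, which part of Fh1 was deleted, or whether a group's 5 libraries are separate cultures. The spread behind each p-value is that of these libraries and may be technical only.

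Gene counts summed to between 5988447 and 18972176 per library (median 10485784). Levels are CPM, the share of a library's counts on the usual CPM scale, after TMM scaling of the library sizes, which assumes that most genes do not differ. The whole-gene count of Fh1 was 92.3 ± 6.16 CPM in Fh1_fl_fl (mean ± SD, n = 5), against 112 ± 5.93 for clone1, 84.7 ± 7.31 for clone19 and 71.3 ± 7.08 for Rec. Reads from exons that a deletion leaves in place are counted too, so this value is no check of the deletion. Clone19 replicate 3 stood apart, with 8.202% of its counts at the ribosomal RNA-derived locus Gm42418, against a median of 0.31365%. The summed level of 4 Y-linked genes was 73.2 to 82 CPM in the Fh1_fl_fl libraries and at most 0.331 CPM in any other library, so Fh1_fl_fl differs from the 3 other groups by more than the Fh1 label. All 6 epithelial markers were detected in every group, with summed levels of 3010 to 3490 CPM in Fh1_fl_fl, 2160 to 2740 in clone1, 2060 to 2290 in clone19 and 4840 to 5650 in Rec. Summed markers of the kidney tubule lineage (5 of 5 detected) were 1260 to 1530 CPM in Fh1_fl_fl, 836 to 961 in clone1, 639 to 836 in clone19 and 881 to 982 in Rec, with Lhx1 at 2 counts in all in each clone. Of 4 proximal tubule markers, Slc34a1 was at 0 counts and Slc5a2 had at most 2 counts in a group. Their sums of 44.5 to 62.3, 73.5 to 144, 77.3 to 132 and 38.7 to 50.8 CPM came nearly all from Lrp2 and Cubn. Summed markers reached at most 7.29 CPM for fibroblasts, 9.79 for endothelial cells and 21.2 for leukocytes, each in clone19. Their part in the results below was not tested. In bulk RNA, fewer cells expressing a gene and less RNA per cell cannot be told apart.

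The start regions of 3 members are shown because, among the 9 tested members, these carry the largest rise (Bcl2l1), the largest fall (Bcl2l11) and opposite changes of the clones (Bax). Bcl2 also had opposite changes of the clones and is not shown. The clone19 rise of Bax lost its call in 6 of 28 alternatives. Each region shown is the 250 bases before a RefSeq start (GRCm38.p6), on the gene's strand, and none of these bases lies in an annotated exon. Windows were searched on both strands for GTAAACA (a FOXO motif), ACGTG (the core of the hypoxia response element) and TGATGCAA (an amino acid response motif). Capitals mark the matches.
Bcl2l1, chr2:152831729-152831978, minus strand: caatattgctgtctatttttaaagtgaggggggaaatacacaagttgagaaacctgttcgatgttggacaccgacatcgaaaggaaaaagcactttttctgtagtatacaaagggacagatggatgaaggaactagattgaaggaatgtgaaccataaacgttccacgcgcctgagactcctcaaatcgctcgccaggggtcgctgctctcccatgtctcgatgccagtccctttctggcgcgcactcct
Bcl2l11, chr2:128125788-128126037, plus strand: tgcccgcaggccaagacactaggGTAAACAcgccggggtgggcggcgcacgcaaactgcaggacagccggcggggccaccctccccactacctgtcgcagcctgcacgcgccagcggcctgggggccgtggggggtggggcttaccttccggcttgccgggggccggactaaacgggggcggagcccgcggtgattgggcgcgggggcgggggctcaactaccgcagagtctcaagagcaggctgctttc
Bax, chr7:45466899-45467148, minus strand: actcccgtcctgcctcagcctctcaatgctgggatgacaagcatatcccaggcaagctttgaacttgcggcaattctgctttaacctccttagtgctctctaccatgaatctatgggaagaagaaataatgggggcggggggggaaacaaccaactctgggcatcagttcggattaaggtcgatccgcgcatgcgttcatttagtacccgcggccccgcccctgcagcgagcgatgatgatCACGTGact
The Bcl2l11 window shown holds 1 GTAAACA, which 3.17% of 32851 windows of this length hold. The window of another Bcl2l11 start, chr2:128127325-128127574, holds none of the 3 motifs. The Bax window holds ACGTG on both strands, as the palindrome CACGTG counted 2 times, and 16.6% of windows hold at least 1. The Bcl2l1 window shown and those of 2 further starts, which lie in annotated exons, hold none of the 3 motifs, and 0.791% of windows hold TGATGCAA. A match is a run of letters and no evidence of binding. Windows were found for 8 of the 10 members.

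Bcl2l1, Pmaip1 and Bbc3 rose in clone1, while Bcl2l11, Bax, Mcl1, Bak1 and Bcl2 fell. In clone19 Bcl2l1, Pmaip1, Bcl2 and Bax rose, and Bcl2l11, Bak1 and Mcl1 fell. In Rec 0 of the 9 rose by edgeR (0 also at an unadjusted p under 0.05 and by DESeq2), and Bcl2, Bcl2l1, Bcl2l11, Mcl1, Bax, Bbc3 and Pmaip1 fell. Calls are from edgeR's quasi-likelihood test at a Benjamini-Hochberg adjusted p under 0.05 over 12671 genes. The 8 of 9 members called in clone1 stand beside 78.6% of all tested genes, the 7 called in clone19 beside 72.9% and the 7 called in Rec beside 70.8%. All 3 comparisons use the same Fh1_fl_fl libraries. Groups of 5 that did not overlap were found for 6, 6 and 5 members, against 65.5%, 59% and 58.3% of tested genes. Median log2 fold changes of the 9 were -0.19, 0.04 and -0.29, against -0.0287, 0.00364 and -0.0342 over all tested genes. Only Bcl2l11 changed more than 2-fold in clone1 and in Rec, and only Bcl2l1 and Bcl2l11 did so in clone19. Such changes made up 29%, 21.9% and 17.9% of tested genes.

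**Figure D1:**
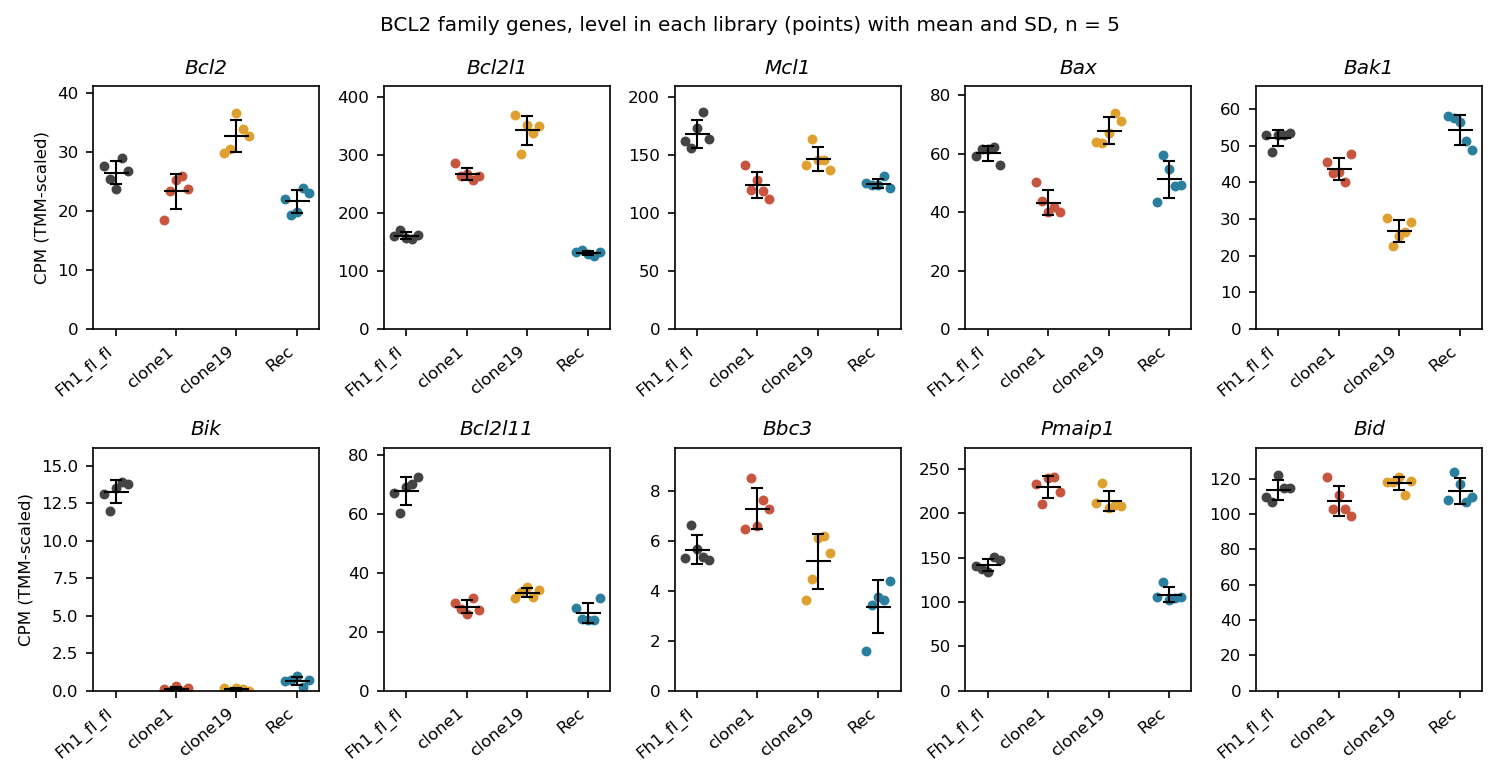
Level of each gene in CPM (y axis, from 0) for every library (points) in the 4 groups, with the mean (bar) and SD (error bar) of 5 libraries. Bcl2l1 and Pmaip1 sit highest in the clones, Bcl2l11 sits highest in Fh1_fl_fl, and Bik is near 0 outside Fh1_fl_fl.

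Bcl2l1 (ENSMUSG00000007659, GRCm38 chromosome 2, 152780668 to 152831728, minus strand) encodes BCL-XL and, by splicing, a short form with the opposite role, which gene counts do not separate. Its levels were 160, 170, 157, 155 and 162 CPM in Fh1_fl_fl and 285, 263, 267, 257 and 263 in clone1. They were 368, 302, 351, 337 and 350 CPM in clone19 and 132, 136, 130, 126 and 133 in Rec. Groups did not overlap, and the order was Rec, Fh1_fl_fl, clone1 and clone19, from low to high. Against Fh1_fl_fl, clone1 had a log2 fold change of 0.73 ± 0.0530 (SE; adjusted p = 1.14e-12) and clone19 of 1.09 ± 0.0533 (adjusted p = 5.26e-16). Rec had -0.29 ± 0.0533 (adjusted p = 2.43e-05). Clone1 lay below clone19 by 0.35 (adjusted p = 1.62e-06).

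Mcl1 (ENSMUSG00000038612, chromosome 3, 95658788 to 95663176, plus strand) encodes a short-lived guardian. Levels were 162, 156, 174, 187 and 164 CPM in Fh1_fl_fl, and 142, 120, 129, 119 and 112 in clone1. Clone19 had 142, 164, 146, 146 and 137 CPM and Rec had 126, 124, 124, 132 and 122. Every clone1 and Rec library lay below every Fh1_fl_fl library, and 1 clone19 library reached into their range. Mcl1 fell by 0.44 in clone1 (adjusted p = 6.6e-07), by 0.20 in clone19 (adjusted p = 0.00743) and by 0.42 in Rec (adjusted p = 1.47e-06) on the log2 scale. Without Fh1_fl_fl replicate 4 the clone19 difference was -0.14 (adjusted p = 0.0547).

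Bcl2 (ENSMUSG00000057329, chromosome 1, 106538178 to 106714274, minus strand) is the founding guardian and was the lowest of them per kilobase. Levels were 27.6, 25.4, 23.8, 29.0 and 26.7 CPM in Fh1_fl_fl and 18.4, 23.3, 25.2, 25.9 and 23.8 in clone1. Clone19 had 29.8, 30.5, 36.5, 33.9 and 32.7 CPM and Rec had 22.1, 19.3, 19.9, 23.9 and 23.0. The clone19 libraries were the highest of the 4 groups without overlap, while Fh1_fl_fl, clone1 and Rec overlapped. Bcl2 rose by 0.30 in clone19 (adjusted p = 0.00313; 0.17 and adjusted p = 0.0773 with library totals only) and fell by 0.29 in Rec (adjusted p = 0.00377). The clone1 value of -0.19 (adjusted p = 0.0476) was not stable: the call was lost in 20 of 28 alternatives, 15 of them with 1 library left out, with adjusted p from 0.00127 to 0.363. Without clone1 replicate 1 it was -0.08 (adjusted p = 0.363).

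**Figure D2:**
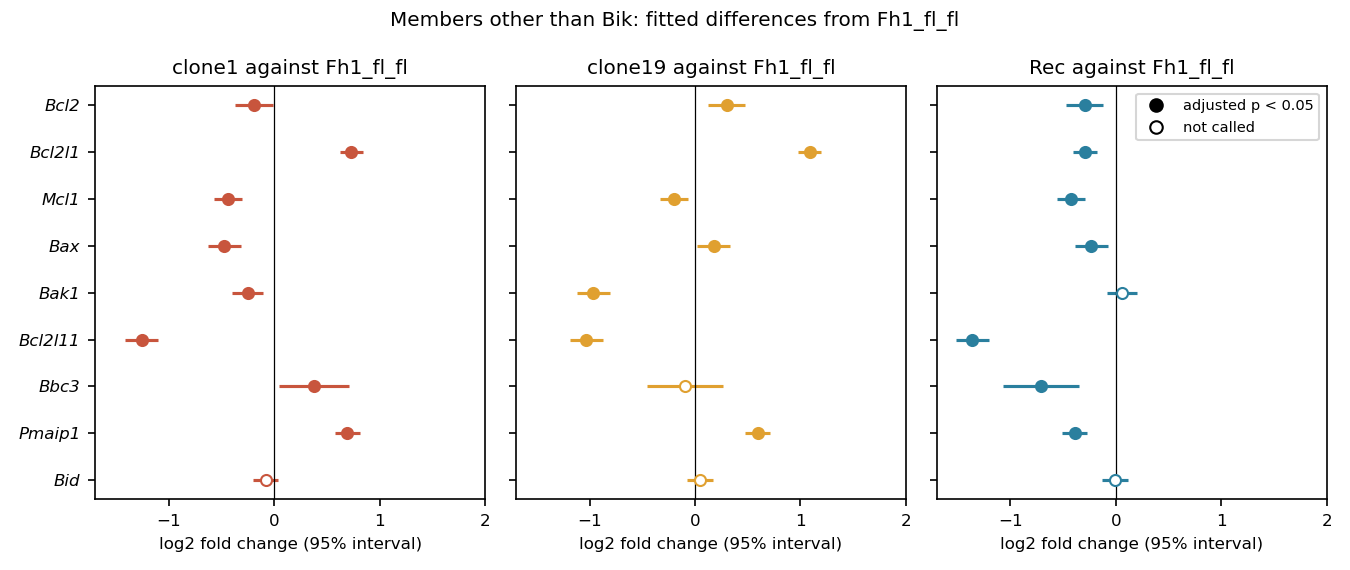
Log2 fold change (x axis) of the 9 members other than Bik against Fh1_fl_fl, with 95% intervals; filled points have an adjusted p under 0.05. Bcl2l11 lies left of 0 in all 3 panels, while Bcl2l1 and Pmaip1 lie right of 0 in both clones and left of 0 in Rec.

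Bax (ENSMUSG00000003873, chromosome 7, 45461697 to 45466898, minus strand) and Bak1 (ENSMUSG00000057789, chromosome 17, 27019810 to 27029009, minus strand) encode the effectors. Bax measured 59.2, 61.6, 61.4, 62.1 and 56.1 CPM in Fh1_fl_fl and 50.3, 43.9, 40.1, 41.6 and 40 in clone1. In clone19 it measured 63.8, 63.5, 67.0, 73.8 and 71.3 CPM, and in Rec 43.4, 59.6, 54.7, 49.0 and 49.1. Clone1 lay below and clone19 above Fh1_fl_fl, each without overlap, and Rec overlapped with Fh1_fl_fl and clone1. Bax fell by 0.47 in clone1 (adjusted p = 3.95e-06) and by 0.23 in Rec (adjusted p = 0.0085). The clone19 value was 0.18 (adjusted p = 0.0377), or 0.05 (adjusted p = 0.547) with library totals, and it lost its call without Fh1_fl_fl replicate 1 (adjusted p = 0.0577) or 5 (0.0839) and without clone19 replicate 4 (0.113) or 5 (0.081).

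Bak1 moved otherwise. Its levels were 53, 48.4, 53, 52.9 and 53.5 CPM in Fh1_fl_fl and 45.5, 42.7, 42.8, 40 and 47.7 in clone1. Clone19 had 30.2, 22.7, 25.4, 26.4 and 29.1 CPM, and Rec had 58.0, 57.5, 56.4, 51.2 and 48.9. Clone19 lay below all other libraries, clone1 lay between, and Rec overlapped with Fh1_fl_fl. Bak1 fell by 0.97 in clone19 (adjusted p = 8.81e-12) and by 0.25 in clone1 (adjusted p = 0.00227), and the Rec difference was 0.06 (95% interval -0.085 to 0.201, adjusted p = 0.469). Ggnbp1 overlaps Bak1 on the other strand, and the strand setting of the counts is not given in the sources used here.

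Bcl2l11 (ENSMUSG00000027381, chromosome 2, 128126038 to 128162547, plus strand) encodes BIM, a BH3-only protein that binds all guardians, in several splice forms. Levels were 66.9, 60.2, 69.2, 70.2 and 72.5 CPM in Fh1_fl_fl and 29.8, 27.6, 25.9, 31.4 and 27.5 in clone1. Clone19 had 31.5, 33.4, 35.3, 31.7 and 34.3 CPM, and Rec had 27.9, 24.2, 24.0, 24.0 and 31.4. Every Fh1_fl_fl library lay above every library of the 3 other groups. Clone1 had a log2 fold change of -1.26 ± 0.0769 (SE; adjusted p = 3.09e-14), clone19 of -1.03 ± 0.0769 (adjusted p = 3.4e-12) and Rec of -1.36 ± 0.0761 (adjusted p = 1.11e-14). Rec against clone1 gave -0.10 (adjusted p = 0.257; -0.21 and adjusted p = 0.0172 without Rec replicate 5). Rec lay below clone19 without overlap, by 0.33 (adjusted p = 0.000765).

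Pmaip1 (ENSMUSG00000024521, chromosome 18, 66458533 to 66465565, plus strand) encodes NOXA, which binds mainly MCL1. Levels were 141, 137, 134, 151 and 147 CPM in Fh1_fl_fl and 233, 211, 240, 241 and 224 in clone1. Clone19 had 212, 234, 206, 210 and 208 CPM, and Rec had 106, 123, 102, 105 and 106. Both clones lay above all Fh1_fl_fl libraries and Rec below them, while the clones overlapped with each other. Pmaip1 rose by 0.69 in clone1 (adjusted p = 2.57e-11) and 0.59 in clone19 (adjusted p = 8.68e-10) and fell by 0.39 in Rec (adjusted p = 1.5e-06).

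Bbc3 (ENSMUSG00000002083, chromosome 7, 16308393 to 16318205, plus strand), the p53 target encoding PUMA, was low. Its levels were 5.34, 6.64, 5.67, 5.37 and 5.25 CPM in Fh1_fl_fl and 6.47, 8.52, 6.60, 7.63 and 7.28 in clone1. Clone19 had 3.65, 4.49, 6.12, 6.19 and 5.52 CPM, and Rec had 1.59, 3.44, 3.76, 3.65 and 4.40. Rec lay below Fh1_fl_fl without overlap, and the other groups overlapped with Fh1_fl_fl. It fell by 0.71 in Rec (adjusted p = 0.000806), and the clone19 difference was -0.10 (95% interval -0.455 to 0.261, adjusted p = 0.627). The clone1 value of 0.38 (adjusted p = 0.0349) became 0.24 with library totals (adjusted p = 0.177), 0.31 without clone1 replicate 2 (adjusted p = 0.105) and 0.37 without clone1 replicate 4 (adjusted p = 0.0571).

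Bid (ENSMUSG00000004446, chromosome 6, 120891930 to 120916853, minus strand) encodes a BH3-only protein that caspase-8 activates by cleavage, and was not called in any of the 6 comparisons. Mean levels in Fh1_fl_fl, clone1, clone19 and Rec were 113.8 ± 5.56, 107.5 ± 8.77, 117.5 ± 3.7 and 113.3 ± 6.96 CPM (SD, n = 5). The 95% intervals against Fh1_fl_fl were -0.204 to 0.04 in clone1, -0.078 to 0.167 in clone19 and -0.128 to 0.115 in Rec. With library totals only, Bid was lower in clone1 by 0.22 (adjusted p = 0.00202) and in Rec by 0.14 (adjusted p = 0.0484). Bcl2l13 overlaps Bid on the other strand.

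Bik (ENSMUSG00000016758, chromosome 15, 83526862 to 83544634, plus strand) encodes a BH3-only protein of the endoplasmic reticulum. It had 268, 116, 167, 194 and 192 counts in Fh1_fl_fl (13.1, 12, 13.5, 13.9 and 13.8 CPM). Clone1 had 1, 0, 3, 0 and 2 counts, clone19 had 1, 0, 1, 1 and 0, and Rec had 7, 7, 12, 2 and 12. Pooled over libraries, Fh1_fl_fl stood at a ratio of 106 to clone1 (95% exact counting interval 48.4 to 289), 180 to clone19 (61.2 to 872, on 3 counts) and 19.6 to Rec (14.3 to 27.7). Rec stood at 5.38 to clone1 (2.27 to 15.5) and 9.14 to clone19 (2.91 to 46.2). Intervals cover counting error only.

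The 10 tested genes beside Bik are given as a description. All fell less than Bik did, or were level or higher. Bik was chosen for its low levels in the clones, so this contrast follows largely from that choice and is no test. Of the 5 nearest tested genes on each side, 7 rose and 2 fell in clone1, 2 rose and 4 fell in clone19, and 5 rose and 1 fell in Rec. Over all tested genes, 78.6, 72.9 and 70.8% were called in clone1, clone19 and Rec. Mcat, at 2.16 kb, had 24.3, 20.7, 19.7 and 27.2 CPM in Fh1_fl_fl, clone1, clone19 and Rec, and Ttll1, at 16 kb, had 30.5, 49.2, 32 and 31.9. Among these neighbours the lowest log2 fold change in both clones was that of Pnpla3, a lipase gene at 623 kb with 1.14, 0.177, 0.27 and 0.724 CPM, and in Rec that of Arfgap3 (27.6, 39.3, 30.1 and 15.8 CPM). By Pearson's r of log2 CPM over the 20 libraries, the genes most like Bik were Nrep (0.9829), Gtf2i (0.9725), Mtmr11 (0.9706), Pcyt1b (0.9696) and Rin2 (0.9676). These r values describe 4 clusters of libraries with Fh1_fl_fl apart from the rest, and carry no p. Nrep measured 295, 6.08, 3.91 and 10.1 CPM in Fh1_fl_fl, clone1, clone19 and Rec.

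**Figure D3:**
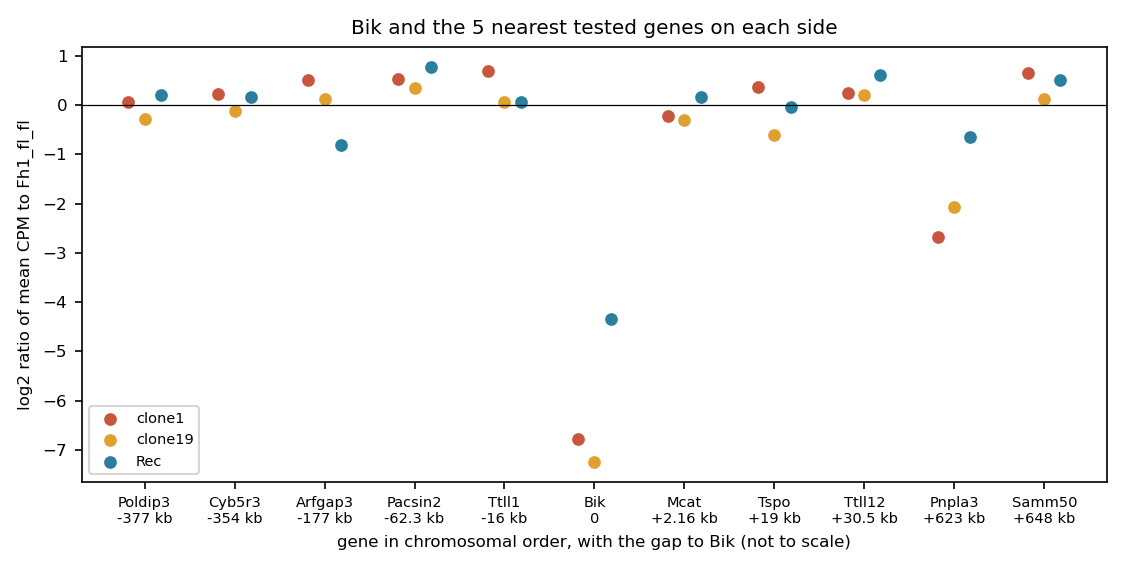
Log2 ratio of mean CPM to Fh1_fl_fl (y axis) for Bik and the 5 nearest tested genes on each side in chromosomal order (x axis, not to scale), for clone1, clone19 and Rec. Bik, which was chosen for its low levels in the clones, lies far below its neighbours in all 3 groups. The next lowest is Pnpla3 in the clones and Arfgap3 in Rec.

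The clones differed from each other in 7 of the 9 members (2 higher and 5 lower in clone1), beside 65.1% of tested genes. Bak1 was higher in clone1 by 0.71 (adjusted p = 7.86e-09). Bax was lower in clone1 by 0.65 (adjusted p = 5.63e-08), Bcl2 by 0.49 (adjusted p = 3.04e-05) and Mcl1 by 0.24 (adjusted p = 0.00201). Bbc3 was higher by 0.48 (adjusted p = 0.02), or 0.41 (adjusted p = 0.0591) without clone1 replicate 2 and 0.42 (adjusted p = 0.0523) without clone19 replicate 2. Bcl2l11 was lower by 0.23 (adjusted p = 0.0178), a call lost without clone1 replicate 3 (adjusted p = 0.0521) or 5 (0.0663) and without clone19 replicate 3 (0.074). Pmaip1 differed by 0.10 (95% interval -0.02 to 0.219, adjusted p = 0.136), and was called without Fh1_fl_fl replicate 4 (0.0486), clone19 replicate 2 (0.0473) or Rec replicate 2 (0.0345). Bid differed by -0.13 (adjusted p = 0.0661), or adjusted p = 0.0291 without clone1 replicate 1.

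Rec differed from clone1 in 5 of the 9 members (2 higher, 3 lower; 77.9% of tested genes) and from clone19 in 8 (1 higher, 7 lower; 73.8%). Bcl2l1 was lower in Rec by 1.02 against clone1 (adjusted p = 1.12e-15) and by 1.38 against clone19 (adjusted p = 5.29e-18). Pmaip1 was lower by 1.08 (adjusted p = 2.76e-15) and 0.98 (adjusted p = 4.16e-14), and Bbc3 by 1.09 (adjusted p = 3.55e-06) and 0.61 (adjusted p = 0.00547). For Bcl2l1 and Pmaip1 Rec lay below Fh1_fl_fl, while the clones lay above it. Bak1 was higher in Rec by 0.31 against clone1 (adjusted p = 0.000329) and 1.02 against clone19 (adjusted p = 2.84e-12). Bax was higher in Rec than in clone1 by 0.24 (adjusted p = 0.00689), a call lost without Rec replicate 2 (adjusted p = 0.0528), and lower than in clone19 by 0.41 (adjusted p = 3.33e-05). Bcl2, Bcl2l11 and Mcl1 were lower in Rec than in clone19 by 0.59, 0.33 and 0.23 (adjusted p = 1.21e-06, 0.000765 and 0.00277). Against clone1 their differences were -0.10, -0.10 and 0.02 (adjusted p = 0.302, 0.257 and 0.836), and Bcl2 was called without clone1 replicate 1 (-0.20, adjusted p = 0.0348). Median log2 fold changes of the 9 were -0.23 for clone1 against clone19, -0.10 for Rec against clone1 and -0.41 for Rec against clone19, beside -0.024, 0.0136 and -0.0181 over all tested genes.

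Compared per kilobase of exon (CPM divided by exon length), Pmaip1 led in every group, with 52 in Fh1_fl_fl, 84.1 for clone1, 78.4 for clone19 and 39.7 for Rec. Bcl2l1 ranked below Mcl1 in Fh1_fl_fl (35.1 against 49.3) and Rec (28.6 against 36.8) and above it in clone1 (58.2 against 36.4) and clone19 (74.5 against 43). The ratio of Bcl2l1 to Mcl1 in Fh1_fl_fl, clone1, clone19 and Rec was 0.715 ± 0.0728, 1.61 ± 0.0931, 1.74 ± 0.222 and 0.78 ± 0.0423 (SD, n = 5). With the longest transcript as the length it was 1.28, 2.87, 3.11 and 1.39, so the order of the genes depends on the length used. The ratio of Bax to Bak1 was 1.76 ± 0.126, 1.51 ± 0.159, 3.91 ± 0.438 and 1.44 ± 0.173 in Fh1_fl_fl, clone1, clone19 and Rec. Summed per kilobase, guardians reached 87.3 ± 2.69, 97.1 ± 5.26, 121 ± 3.1 and 67.8 ± 0.723 in these groups, effectors 59.8 ± 1.43, 45.6 ± 3.16, 54.2 ± 3.38 and 55.1 ± 4.61, and BH3-only genes 103 ± 3.62, 121 ± 5.72, 118 ± 4.03 and 76.9 ± 4.66. The BH3-only sum includes Bik, which was chosen for its levels. The sums depend on the length used and were not recomputed with the longest transcript. From high to low, Pmaip1 and Mcl1 were followed in Fh1_fl_fl by Bax, Bcl2l1, Bid (32.1), Bak1 (21.7), Bcl2l11 (8.45), Bik (8.35), Bcl2 (2.89) and Bbc3 (2.66). Neighbours there whose means differed by less than their summed SDs were Pmaip1 and Mcl1, Bcl2l11 and Bik, and Bcl2 and Bbc3. In clone1 they were Bid and Bax, and Bcl2l11 and Bbc3, and in clone19 Pmaip1 and Bcl2l1, and Bax and Mcl1. In Rec they were the neighbours among the 4 highest genes (Pmaip1, Mcl1, Bax and Bid). With the longest transcript Bcl2l1 led in every group.

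**Figure D4:**
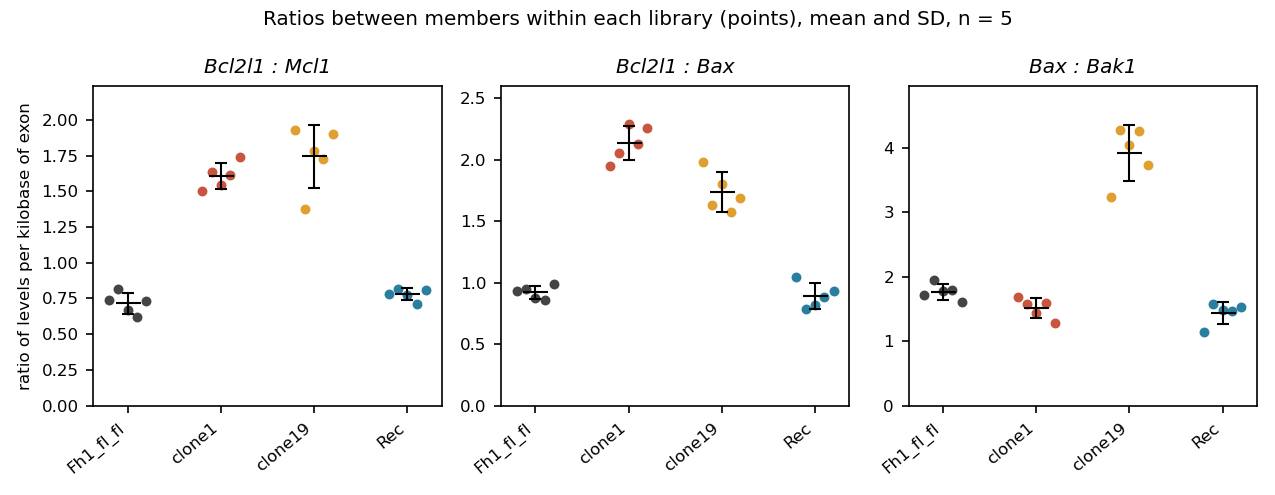
Ratio of levels per kilobase of exon (y axis, from 0) within each library (points), with mean and SD of 5 libraries. Bcl2l1 to Mcl1 and Bcl2l1 to Bax are higher in the clones than in Fh1_fl_fl and Rec, and Bax to Bak1 is highest in clone19.

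Of 16 further family genes listed, 14 matched and 10 were tested. In clone1 3 rose and 5 fell, in clone19 6 rose and 4 fell, and in Rec 2 rose and 6 fell (1 rise with library totals). These calls are 80, 100 and 80% of the 10, beside 78.6, 72.9 and 70.8% of all tested genes. Their median log2 fold changes were -0.33, 0.39 and -0.4. Bnip3, a mitophagy receptor gene induced by hypoxia, measured 120.3 ± 19.9, 567.6 ± 32.7, 311 ± 61.4 and 61.51 ± 8.89 CPM in Fh1_fl_fl, clone1, clone19 and Rec. Log2 fold changes were 2.24 (adjusted p = 1.39e-15), 1.37 (adjusted p = 4.76e-11) and -0.97 (adjusted p = 5.61e-08). Its relative Bnip3l went from 176.7 ± 17 to 411.2 ± 15.7, 428.6 ± 60.3 and 121.5 ± 10.7 CPM. Bmf, a BH3-only gene, fell from 60.92 ± 3.82 CPM to 13.22 ± 1.14, 3.166 ± 0.387 and 2.405 ± 0.513 (log2 -2.20, -4.28 and -4.68; adjusted p = 1.21e-18, 4.14e-22 and 7.05e-23). Bok, an effector relative of BAX and BAK1, fell from 149.1 ± 5.57 to 72.65 ± 9.14, 64.12 ± 6.64 and 105.8 ± 6.99 CPM, and the BH3-only gene Bad from 30.26 ± 2.12 to 18.23 ± 1.89, 16.95 ± 1.98 and 24.59 ± 3. Hrk, a BH3-only gene, split the clones, with 2.128 ± 0.176, 0.7931 ± 0.29, 9.116 ± 0.946 and 0.7736 ± 0.392 CPM in the order above. Bcl2l13 rose in all 3 groups, from 88.51 to 150.7, 112.8 and 103 CPM, although with library totals the Rec difference was 0.09 (adjusted p = 0.187). Bcl2l2 rose in clone19 only, by 0.44 (adjusted p = 0.00314), and Bcl2l12 was 5.689, 3.366, 4.106 and 4.679 CPM. Bcl2l15, under 5 CPM, rose in clone19 and Rec, and Bcl2l10, Bcl2a1b and Bcl2a1c were at 0 counts.

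**Figure D5:**
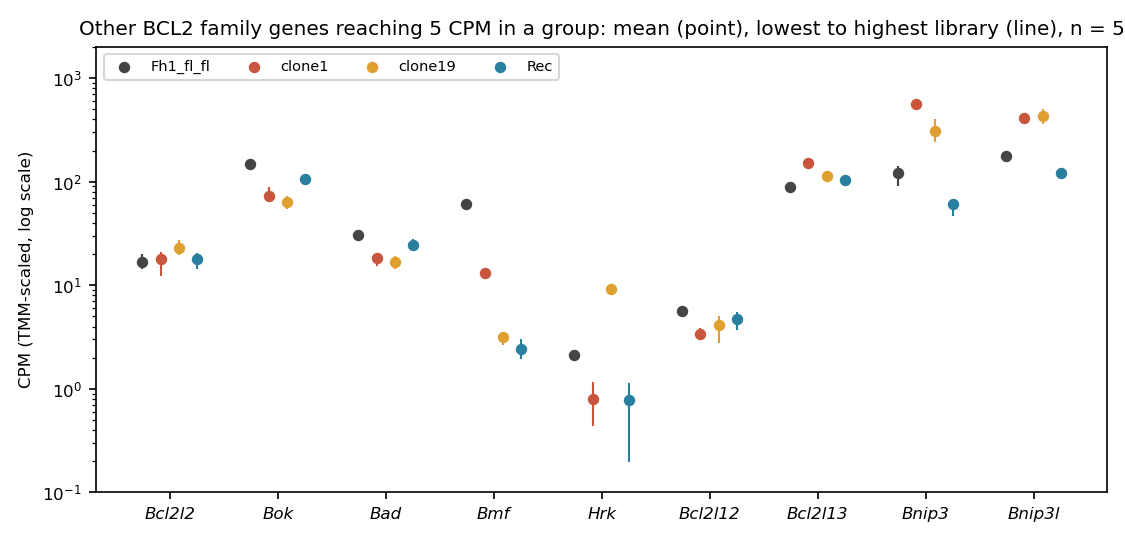
CPM on a log axis (y) of 9 further family genes (x) in the 4 groups, with the mean of 5 libraries (point) and the lowest to highest library (line). Bnip3 and Bnip3l sit highest in the clones, and Bmf sits highest in Fh1_fl_fl.

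The lists of other apoptosis genes were chosen with earlier results known, and their counts are read against the shares of all tested genes given above. The mitochondrial pore and release list had 8 rises and 2 falls of 10 tested genes in clone1, 6 and 0 in clone19 and 6 and 0 in Rec by edgeR (0 falls also at an unadjusted p under 0.05 and by DESeq2 in clone19 and Rec). With library totals the rises in clone19 became 3 of 10, and 1 gene fell in Rec. A fall of 1 gene in clone19 was called in 4 of 28 alternatives, library totals among them. List medians were 0.54, 0.22 and 0.25. Htra2, a released protease, went from 33.53 ± 2.46 CPM to 84.71 ± 10.3, 65.17 ± 2.99 and 68.94 ± 5.01. Endog, a mitochondrial nuclease, had 1.981 ± 0.154, 5.659 ± 1.73, 2.07 ± 0.618 and 2.356 ± 0.321 CPM in Fh1_fl_fl, clone1, clone19 and Rec, and passed the test in clone1 (1.52, adjusted p = 1.83e-07). Caspases and their partners had 0 rises and 6 falls of 9 in clone1, 0 and 8 in clone19 (0 rises in either clone also at an unadjusted p under 0.05 and by DESeq2) and 3 and 5 in Rec (1 rise with library totals), with medians of -0.31, -0.36 and -0.38. Dffb, the apoptotic nuclease, fell by 1.28 and 1.31 in the clones (adjusted p = 2.89e-07 and 5.02e-07). In Rec the Dffb value of -0.39 (adjusted p = 0.0291) lost its call without Fh1_fl_fl replicate 4 (adjusted p = 0.0864) or 5 (0.0782) and without Rec replicate 4 (0.0745) or 5 (0.104). Among 6 inhibitors of apoptosis, 1 rose and 3 fell in clone1, 3 and 3 in clone19 (1 rise with library totals) and 1 and 4 in Rec, with medians of -0.41, -0.05 and -0.76. Birc3 went from 16.78 ± 2.03 to 0.2195 ± 0.214, 2.434 ± 0.717 and 2.862 ± 0.573 CPM, and Xiap from 184.7 ± 11.1 to 96.11 ± 13, 227.6 ± 13.9 and 106.7 ± 9.74.

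Death receptors and adaptors had 5 rises and 3 falls of 8 in clone1, 4 and 3 in clone19 and 4 and 1 in Rec (2 rises with library totals), with medians of 0.73, 0.21 and 0.14. Fas, a death receptor gene, rose in both clones, from 0.1597 ± 0.149 CPM to 2.685 ± 0.688 and 2.246 ± 0.729, and had 4 counts over all Rec libraries. Tnfrsf1b went from 6.381 ± 1.25 CPM to 33.92 ± 6.02, 38.43 ± 2.97 and 10.3 ± 1.55. Among 10 tested transcription factors that act on BH3-only genes, 5 rose and 3 fell in each of the 3 groups, though with library totals 5 fell in Rec. Medians were 0.2, 0.32 and 0.29. Ddit3, a stress response factor, went from 13.66 ± 1.14 to 341.4 ± 23.1, 205.4 ± 14.4 and 37.52 ± 3.77 CPM, and Atf3 from 18.49 ± 0.975 to 68.53 ± 3.62, 60.07 ± 2.39 and 31.61 ± 2.03. Trp53, which encodes p53, fell from 673.2 ± 26.9 CPM to 490.7 ± 33.6 and 339.4 ± 12.5 in the clones (adjusted p = 3.36e-08 and 1.33e-14) and was 660.2 ± 43.9 in Rec. Foxo3, an activator of Bcl2l11, was 96.44 ± 4.84, 88.37 ± 6.28, 83.66 ± 9.42 and 88.16 ± 5.17 CPM, called lower in clone19 (-0.21, adjusted p = 0.00981), and also in clone1 and Rec with library totals (-0.27 and -0.26). The p53 target Cdkn1a fell from 120.8 ± 6.32 to 43.46 ± 6.23, 58.54 ± 6.82 and 72.09 ± 4.18 CPM. Among 10 p53 targets 3 rose and 5 fell in clone1, 5 and 3 in clone19 and 8 and 2 in Rec, with medians of -0.11, 0.19 and 0.46. Eda2r rose from 0.5156 ± 0.193 CPM to 11.47 ± 1.91 in clone1, 1.104 ± 0.484 in clone19 and 1.569 ± 0.348 in Rec, whereas Trp53inp1 fell from 83.47 ± 5.07 to 33.38 ± 5.45, 22.55 ± 2.1 and 14.65 ± 2.07. Of 11 regulators of MCL1 and BH3-only proteins, 3 rose and 3 fell in clone1, 5 and 4 in clone19 and 4 and 3 in Rec, with medians of 0.05, -0.06 and -0.01. Rises in clone1 ran from 2 to 5 over the alternatives (5 without clone19 replicate 3). Pim1, a survival kinase, went from 23.38 ± 2.05 to 149.1 ± 6.35, 178.5 ± 13.5 and 23.03 ± 2.13 CPM, and Pim3 from 55.56 ± 4.78 to 157.7 ± 10.8, 146.8 ± 9.42 and 126.5 ± 8.12.

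With library totals in place of TMM scaling, the median of all tested genes shifted by -0.142 in clone1, -0.124 in clone19 and -0.132 in Rec against Fh1_fl_fl. Among called genes, the higher ones made up 48.4, 50.5 and 47.2% in clone1, clone19 and Rec under TMM and 40.1, 40.7 and 36.6% under library totals, and the values above stand relative to TMM scaling.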

How the data were processed

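RNA sequencing counts of 20 libraries were analysed. The authors deposited counts, 1 whole number per Ensembl gene and library with no normalization, plus lines for unassigned reads, which were left out (multiply aligned reads were 28.83 to 40.29% of a library). The submitters' processing notes name GRCm38, HTSeq 0.5.3p9, TopHat2 2.0.4 and DESeq 1.10.1. Their roles, the annotation release and strand setting are not stated by any source used here. Symbols, positions and exon lengths came from GENCODE M21, matched on the Ensembl ID (37607 of 39179 genes). Sequence windows came from RefSeq (GRCm38.p6).

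With edgeR 4.0.16 in R 4.3.3, 12671 genes passed filterByExpr and were scaled by TMM. They were fitted over all libraries by quasi-likelihood with group means, and for each gene the groups shared 1 estimate of the spread. P-values were adjusted by Benjamini-Hochberg over all tested genes. The script was tested on simulated counts. In a library a count of 0 allows up to 3 counts, or 0.147 to 0.524 CPM. Alternatives were library totals, relative log expression scaling, other filters, only the groups compared, removal of Gm42418, a replicate block, DESeq2 1.42.0, the longest transcript as length, and each library left out. No libraries held identical values.

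The members and lists were chosen with earlier results of these data known. All 10 listed members were named, further family genes with a mean of at least 5 CPM in any group, and from each other list the 2 genes with the largest absolute change among those called in clone1 or clone19, plus Trp53, Cdkn1a, Ddit3 and Foxo3. 1 gene that this rule names and 1 marker list are not reported here. For Bik, the 5 tested genes of highest Pearson correlation were named.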

Additional observations from a re-analysis of the deposited data

Results flagged for a closer look

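In 3 of 40 groups of a member's 5 libraries, 1 library lay far from the other 4, where chance flags about 1 in 20 groups. Bak1 was 48.4 CPM in Fh1_fl_fl replicate 2, with the others at 52.9 to 53.5. Pmaip1 was 234 CPM in clone19 replicate 2, with the others at 206 to 212, and 123 CPM in Rec replicate 2, with the others at 102 to 106.

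For 2 members the clones moved in opposite directions from Fh1_fl_fl, and the test between the clones passed. Bcl2 differed between clone1 and clone19 by -0.49 on the log2 scale (clone1 -0.19, clone19 0.30 against Fh1_fl_fl), and Bax by -0.65 (clone1 -0.47, clone19 0.18). The clone1 value of Bcl2 and the clone19 value of Bax lost their calls under some alternatives.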

How the results depend on the processing

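Over 28 alternatives, 40 of 54 member and comparison pairs kept their side of the threshold, and the number of members called stayed within 1.5 times its value in all 6 comparisons. With 1 library left out it ran from 6 to 8 in clone1, 6 to 7 in clone19 and 7 to 7 in Rec against Fh1_fl_fl, from 6 to 8 between the clones, and for Rec from 4 to 6 against clone1 and 8 to 8 against clone19. No called value changed sign, while uncalled values near 0 did, such as Bak1 in Rec (-0.07 to 0.11). The ratio of Bcl2l1 to Mcl1 moved with the longest transcript as length, to 1.28, 2.87, 3.11 and 1.39 for Fh1_fl_fl, clone1, clone19 and Rec. With the replicate block 8, 7 and 7 members were called in clone1, clone19 and Rec against Fh1_fl_fl, 7 between the clones, and 5 and 8 in Rec against clone1 and clone19, beside 9926, 9186, 8918, 8173, 9838 and 9310 of all genes. To look for pairing, each gene's group mean was taken from the log2 CPM of its libraries. The remaining deviations of same-numbered libraries in different groups correlated at a median of 0.0162 over 30 pairs (-0.197 to 0.163). The median was -0.0029 over the 120 other pairs. Of the 30 pairs, 6 lay above 0.1, and 6 of 20 libraries correlated best with their own number. The labels give only a shared number, and these correlations cannot tell whether same-numbered libraries shared a culture or batch. Alternatives for the other apoptosis lists and named genes were chosen after seeing the data, and 27 list counts moved over all settings. Bik rests on 3 to 40 counts outside Fh1_fl_fl, and depth limits its ratios there.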
